A study of Mus musculus with 2 samples.

Results

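The 10 genes described here mark T cells and their thymic precursors, and are Cd3d, Cd3e, Cd3g, Trbc1, Trbc2, Tcf7, Lef1, Rag1, Dntt and Ptcra. They were taken by symbol from a table of 33640 genes, and all 10 were found in it. The values came from mitral valves of 5-month-old mice heterozygous for the Fbn1 C1039G allele, written Fbn1C1039G/+, and of WT mice of the same age. Fibrillin-1, the product of Fbn1, builds the microfibrils of the extracellular matrix, and mice with this allele serve as a model of Marfan syndrome. Each genotype was 1 library, made from valves of 8 hearts pooled from male and female mice. With no replicates, no test could be made and values carry no error, and each difference is one between these pools.

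T cells recognise antigen through a receptor made of an alpha and a beta chain, or of a gamma and a delta chain, which is held at the surface and coupled to signalling by the CD3 chains and CD247. The receptor genes are assembled in the thymus from variable, diversity and joining segments. The recombinase RAG1/RAG2 cuts the segments, terminal transferase (Dntt) adds bases at the joints, and the pre-T alpha chain (Ptcra) stands in for the alpha chain while the beta chain is being tested. Tcf7 and Lef1 encode the transcription factors TCF-1 and LEF-1, which act in T cell development and are also nuclear effectors of Wnt signalling in other cells. Precursors of B cells also use Rag1 and Dntt.

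Of the 10 genes, 7 were lower in the mutant pool by at least 2-fold and 0 were higher by as much. The remaining 3 genes, Cd3d, Lef1 and Ptcra, differed by less than 2-fold. A gene is called at least 2-fold different here where the difference in log2(TPM + 1), mutant minus WT, was at least 1 in size. TPM is an abundance per length of transcript, scaled to a fixed library total, so that levels of different genes can be set beside each other. Among all 17004 genes with a mean of at least 1 TPM, 1.72% were lower in the mutant pool by at least 2-fold and 4.81% higher. The 10 genes were chosen by their TPM in these same pools, because most of them were lower in the mutant pool while Cd3d and Ptcra were not, so their count is a description and is not evidence that T cell genes as a class were lower. The genes had a median difference of -1.37, against 0.14 over all genes with a mean of at least 1 TPM. All 10 had such a mean, but Rag1 and Dntt were under 1 TPM in the mutant pool and reached it through the WT pool. In bulk tissue, fewer T cells and less of a transcript in each T cell cannot be told apart.

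**Figure D1:**
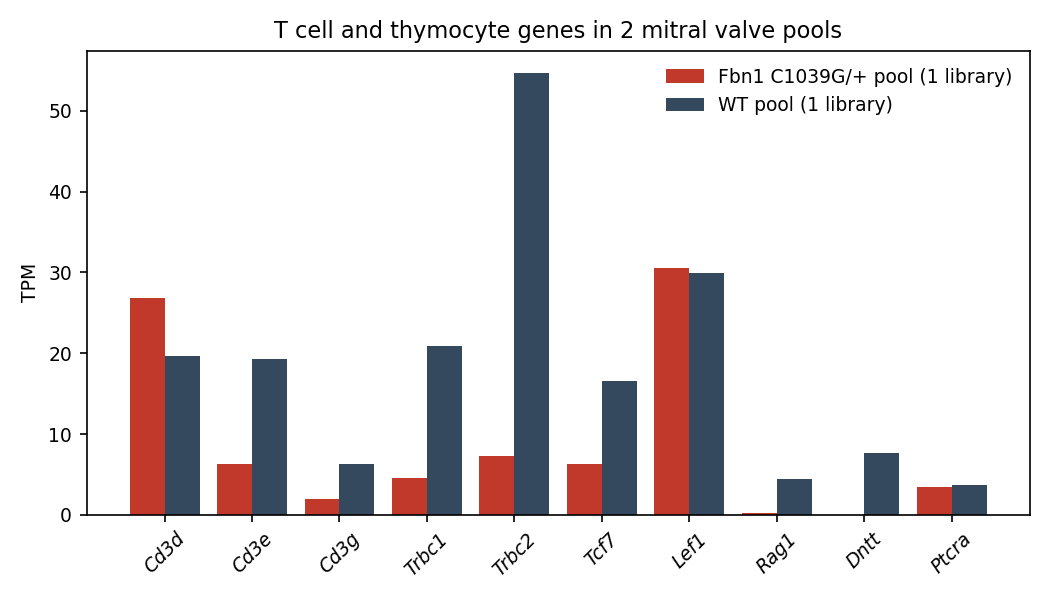
TPM (linear axis) of the 10 T cell and thymocyte genes in the Fbn1 C1039G/+ pool (red) and the WT pool (dark), 1 library each and so without error bars. Trbc2 was at 7.31 TPM in the mutant pool and 54.7 TPM in the WT pool, whereas Cd3d and Lef1 were as high or higher in the mutant pool, and Dntt was listed at 0 in it.

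The order of the genes by level differed between the pools. In the mutant pool Lef1 was highest at 30.6 TPM, followed by Cd3d at 26.9 TPM, with the next gene, Trbc2, at 7.31 TPM. In the WT pool Trbc2 was highest at 54.7 TPM, then Lef1 at 29.9 TPM and Trbc1 at 20.9 TPM. Cd3d, at 19.7 TPM, and Cd3e, at 19.2 TPM, were next to each other there. With 1 library per genotype there is no spread by which such neighbours could be ordered.

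The constant region genes of the receptor beta chain were far lower in the mutant pool. Trbc2 (ENSMUSG00000076498.2, chromosome 6, 41546730 to 41548352 in GRCm38, the mm10 build) was at 7.31 TPM in the mutant pool and 54.7 TPM in the WT pool, a difference of -2.74. Trbc1 (ENSMUSG00000076490.6, chromosome 6, 41538218 to 41539881) was at 4.54 TPM in the mutant pool and 20.9 TPM in the WT pool, a difference of -1.98. These genes lie 6849 bases apart and encode alternative constant regions that are nearly the same. Summed, they were at 11.8 TPM in the mutant pool and 75.6 TPM in the WT pool, 6.38-fold higher in WT.

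The copies are shown here because their likeness limits how reads can be assigned to one or the other. Over 518 coding bases of the annotated transcripts they differed at 23, an identity of 95.6%, and the longest identical run was 259 bases. In the first exon, of 375 bases, the 1 difference was C260A, with the Trbc1 base first and positions counted from the exon's 5' end. It is the capital letter in positions 136 to 375 of the exon, from GENCODE (GRCm38), written 5' to 3':
Trbc1 (chr6:41538353-41538592, plus strand): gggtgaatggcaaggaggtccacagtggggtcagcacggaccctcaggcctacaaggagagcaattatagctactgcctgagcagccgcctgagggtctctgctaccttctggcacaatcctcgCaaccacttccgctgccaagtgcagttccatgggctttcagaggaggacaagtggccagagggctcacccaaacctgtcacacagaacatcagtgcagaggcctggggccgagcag
Trbc2 (chr6:41546865-41547104, plus strand): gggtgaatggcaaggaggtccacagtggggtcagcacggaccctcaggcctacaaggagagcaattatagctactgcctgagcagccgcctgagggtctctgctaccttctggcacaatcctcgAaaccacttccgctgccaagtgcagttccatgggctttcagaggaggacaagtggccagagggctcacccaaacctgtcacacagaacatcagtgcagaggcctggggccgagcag
The sum was lower in the mutant pool, as each copy was. No source used here says how reads shared by the copies were treated.

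The genes of the CD3 chains did not share a direction, although they lie side by side on chromosome 9. Cd3e (ENSMUSG00000032093.7, 44998740 to 45009627, minus strand), which encodes CD3 epsilon, was at 6.35 TPM in the mutant pool and 19.2 TPM in the WT pool, a difference of -1.46. Cd3g (ENSMUSG00000002033.14, 44969572 to 44980431, minus strand), which encodes CD3 gamma, was at 2.001 TPM in the mutant pool and 6.28 TPM in the WT pool, a difference of -1.28. Cd3d (ENSMUSG00000032094.8, 44981786 to 44987339, plus strand), which encodes CD3 delta, was at 26.9 TPM in the mutant pool and 19.7 TPM in the WT pool, a difference of 0.43. The annotated starts of Cd3g and Cd3d are 1355 bases apart and point away from each other. Cd3e was 3.17 times Cd3g in the mutant pool and 3.07 times Cd3g in the WT pool, so the ratio of these genes was nearly the same in both. By contrast, Cd3d was 4.24 times Cd3e in the mutant pool and 1.02 times Cd3e in the WT pool.

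The protein-coding genes on either side of the cluster were all within 2-fold. Ube4a, a ubiquitin ligase gene next to Cd3g, was at 24.9 TPM in the mutant pool and 23.3 TPM in the WT pool. Mpzl2, an adhesion molecule gene next to Cd3e, was at 5.81 TPM in the mutant pool and 6.43 TPM in the WT pool. Beyond these, Atp5l was at 278 TPM in the mutant pool and 369 TPM in the WT pool, and Mpzl3 was at 2.55 TPM in the mutant pool and 1.62 TPM in the WT pool. Cd3e overlaps an annotated antisense gene, Gm48719, and no source used here says whether strand was used in the counting, so that reads from the pair cannot be told apart.

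The windows around the starts of these neighbours are shown because Cd3d went the other way from the genes that flank it. Each holds 250 bases before the RefSeq gene start and 50 after it (RefSeq, GRCm38.p6), written 5' to 3' on the gene's strand. Capitals mark matches on either strand to CTTTGA, the core of TCF/LEF sites, and to CAGGTG, an E box that E proteins bind:
Cd3g (chr9:44980382-44980681, minus strand): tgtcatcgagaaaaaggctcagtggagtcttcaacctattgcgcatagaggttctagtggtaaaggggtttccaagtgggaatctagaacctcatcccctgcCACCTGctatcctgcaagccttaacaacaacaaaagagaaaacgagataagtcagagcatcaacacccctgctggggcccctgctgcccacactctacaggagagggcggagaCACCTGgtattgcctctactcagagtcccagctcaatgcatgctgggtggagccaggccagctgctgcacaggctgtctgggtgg
Cd3d (chr9:44981536-44981835, plus strand): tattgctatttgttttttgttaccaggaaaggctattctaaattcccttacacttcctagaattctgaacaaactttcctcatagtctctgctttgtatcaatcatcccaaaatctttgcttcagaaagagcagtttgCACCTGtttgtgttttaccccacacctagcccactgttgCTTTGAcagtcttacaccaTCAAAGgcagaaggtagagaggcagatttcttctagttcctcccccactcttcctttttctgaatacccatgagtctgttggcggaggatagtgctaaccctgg
Cd3e (chr9:45009562-45009861, minus strand): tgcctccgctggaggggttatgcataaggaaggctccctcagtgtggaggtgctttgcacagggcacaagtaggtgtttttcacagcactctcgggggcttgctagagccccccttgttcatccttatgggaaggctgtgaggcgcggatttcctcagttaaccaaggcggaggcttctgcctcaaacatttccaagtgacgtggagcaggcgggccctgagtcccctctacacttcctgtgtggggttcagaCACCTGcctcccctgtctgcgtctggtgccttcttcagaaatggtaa
The Cd3d window had CTTTGA at -73 and its reverse complement at -54 relative to the gene start, and neither of the other windows had it on either strand. A match to CAGGTG was found in all 3 windows, at -112 in Cd3d, at -148 and -35 in Cd3g and at 3 in Cd3e. The share of all 32851 promoter windows of this length with a match was 16.0% for CTTTGA and 20.2% for CAGGTG. Another motif, TGTGGT, which RUNX factors bind, is in 16.8% of all windows and was in none of these, while the Rag1 window (chr2:101649483-101649782) held it at -81 and -67. No matches overlapped in the windows of the 8 genes on the list that had an entry. These are matches of letters and not measured sites.

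**Figure D2:**
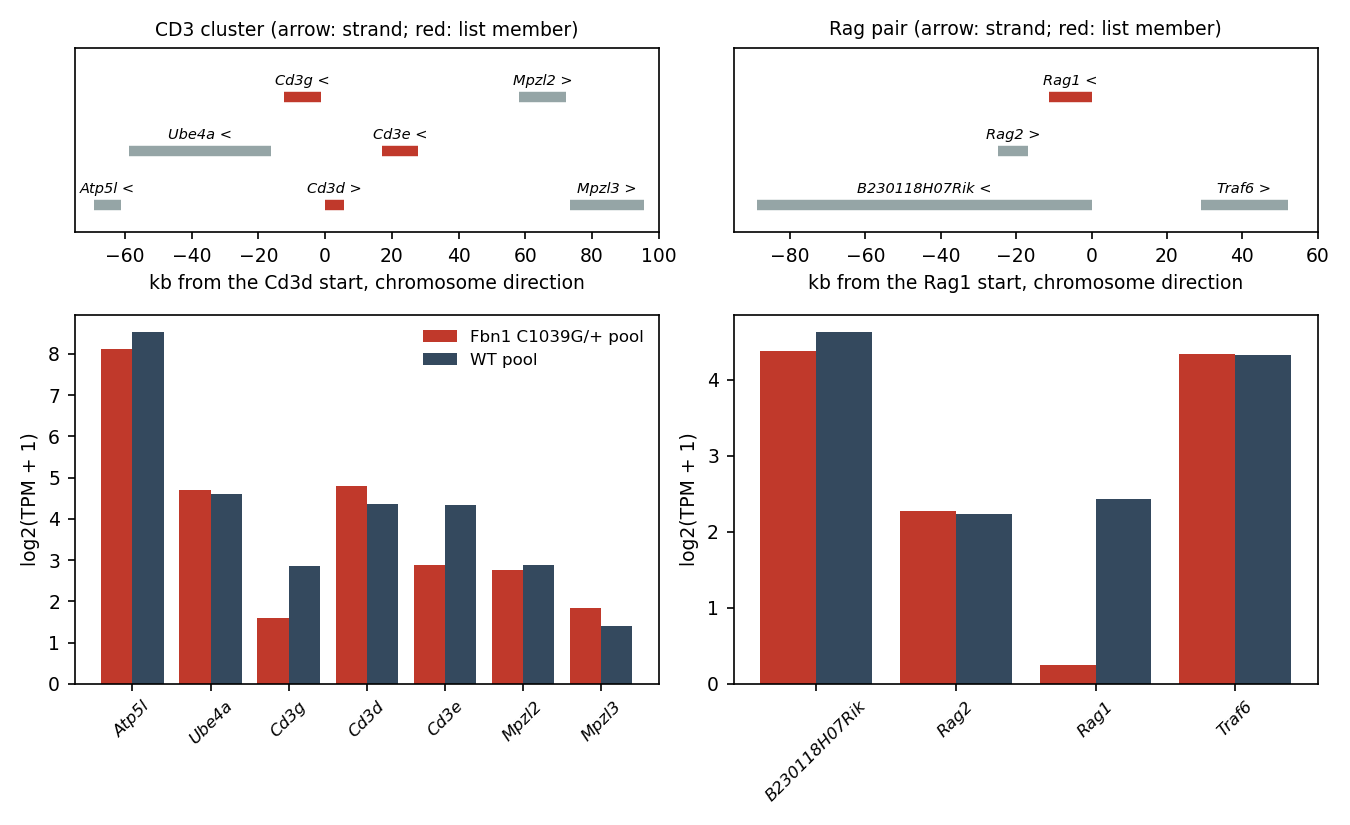
Upper panels show the annotated genes of the CD3 cluster and of the Rag pair by distance in kb from the start of Cd3d or Rag1, with genes of the list in red. Lower panels show log2(TPM + 1) of the same genes in the Fbn1 C1039G/+ pool (red) and the WT pool (dark), 1 library each; Cd3g, Cd3e and Rag1 were lower in the mutant pool by at least 2-fold, and none of their neighbours was.

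Genes of receptor rearrangement differed among themselves. Rag1 (ENSMUSG00000061311.6, chromosome 2, 101638282 to 101649501) was at 0.183 TPM in the mutant pool and 4.39 TPM in the WT pool, a difference of -2.19. Dntt (ENSMUSG00000025014.13, chromosome 19, 41029275 to 41059525) was listed at 0 in the mutant pool and was at 7.60 TPM in the WT pool, so no fold is given. Ptcra (ENSMUSG00000036858.8, chromosome 17, 46755663 to 46763712) was at 3.49 TPM in the mutant pool and 3.74 TPM in the WT pool, a difference of -0.08. The mutant pool was thus near 0 for Rag1 and Dntt and level with the WT pool for Ptcra. Rag2, the partner of Rag1 whose gene ends 5753 bases from it, was at 3.82 TPM in the mutant pool and 3.69 TPM in the WT pool. Rag2 was 20.9 times Rag1 in the mutant pool and 0.840 times Rag1 in the WT pool. The first of these ratios divides by 0.183 TPM of Rag1, which may rest on few reads. Rag1 and Rag2 both lie within a longer gene, B230118H07Rik, which is on the strand of Rag1 and opposite to Rag2. B230118H07Rik was at 19.8 TPM in the mutant pool and 23.7 TPM in the WT pool. Whether its reads were kept apart from those of Rag1 and Rag2 is not known. Ptcra overlaps Gm26904, an RNA gene on the opposite strand, from which its reads cannot be told apart.

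The TCF/LEF factors also parted. Tcf7 (ENSMUSG00000000782.15, chromosome 11, 52252371 to 52283014) was at 6.27 TPM in the mutant pool and 16.6 TPM in the WT pool, a difference of -1.28. Lef1 (ENSMUSG00000027985.14, chromosome 3, 131110471 to 131224356) was at 30.6 TPM in the mutant pool and 29.9 TPM in the WT pool, a difference of 0.03 whose sign turned with the scaling. Tcf7 was 0.205 times Lef1 in the mutant pool and 0.554 times Lef1 in the WT pool. Both overlap annotated antisense genes, A630014C17Rik at Tcf7 and Gm43352 at Lef1.

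Non-lymphoid cells of a valve can use the same factors, so 16 Wnt ligands, antagonists and targets were read beside them. Of these, 10 had lower TPM in the mutant pool and 6 had higher, with a median difference of -0.15, and 2 were at least 2-fold lower. A mean of at least 1 TPM was reached by 15 of the 16. Among all genes with such a mean, 35.1% had lower TPM in the mutant pool, 64.9% had higher and 1.72% were at least 2-fold lower. Wnt9a, a ligand of endocardium and valves, was at 7.48 TPM in the mutant pool and 18.9 TPM in the WT pool, and Notum, which inactivates Wnt proteins, was at 0.361 TPM in the mutant pool and 1.99 TPM in the WT pool. Of the other factors of the TCF family in the list, Tcf7l1 was at 27.4 TPM in the mutant pool and 17.0 TPM in the WT pool and Tcf7l2 was at 54.0 TPM in the mutant pool and 47.3 TPM in the WT pool.

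How far genes differ between these pools depends on their abundance, since low values vary more. Among genes with a mean of 20 to 100 TPM, the central 95% of differences lay between -0.53 and 0.89. Trbc2 was below that range, while Cd3d and Lef1 were inside it. From 5 to 20 TPM the range was -0.76 to 1.27, and Cd3e, Trbc1 and Tcf7 were below it. From 1 to 5 TPM it was -1.44 to 1.93, with Rag1 and Dntt below it and Cd3g and Ptcra inside it. In all, 6 of the 10 genes lay below the range of their band and 4 inside it. The genes were chosen by these same values, so this count describes them and is not a test. Rag1 and Dntt came into their band through the WT pool.

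**Figure D3:**
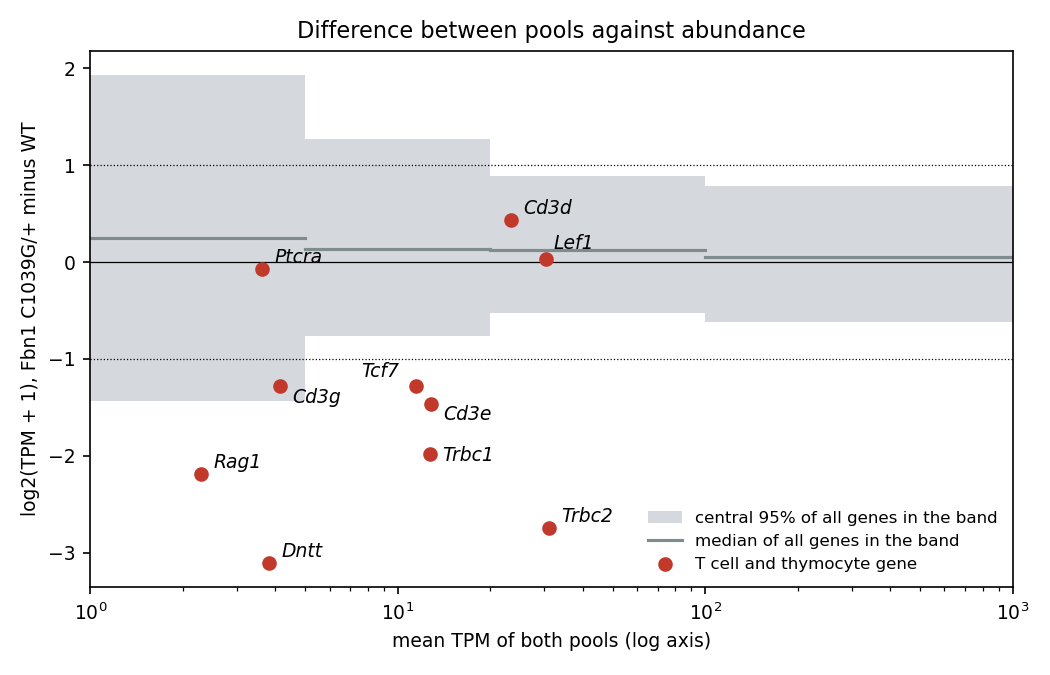
Difference in log2(TPM + 1), Fbn1 C1039G/+ minus WT, against the mean TPM of both pools (log axis). Each red point is a gene of the list, which was chosen by these same values. Grey areas hold the central 95% of all genes in each abundance band, with their median as a line. Dotted lines mark a 2-fold difference on this scale, and 6 points lie below the grey area and none above it.

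Genes that work with the receptor were covered by a list of 20, of which 13 had lower TPM in the mutant pool and 7 had higher. The median difference over all 20 was -0.36, and 3 were at least 2-fold lower and 0 at least 2-fold higher. Among all genes with a mean of at least 1 TPM, 35.1% had lower TPM in the mutant pool and 64.9% had higher. Over all 33640 genes, with no filter, 24.4% had lower TPM and 42.8% had higher, and 1.25% were at least 2-fold lower and 2.98% at least 2-fold higher. Lck, the kinase that starts receptor signalling, was at 1.11 TPM in the mutant pool and 6.24 TPM in the WT pool. The co-receptor chains Cd8b1 and Cd8a completed the 3. Cd8b1 was at 2.997 TPM in the mutant pool and 10.8 TPM in the WT pool. Cd8a was at 3.04 TPM in the mutant pool and 8.35 TPM in the WT pool.

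Other parts of the receptor complex were closer between the pools. Trac, the constant region of the alpha chain, was at 6.77 TPM in the mutant pool and 9.26 TPM in the WT pool, a difference of -0.40. Trac was 0.926 times Trbc2 in the mutant pool and 0.169 times Trbc2 in the WT pool. Cd247, the CD3 zeta chain that natural killer cells also use, was at 19.6 TPM in the mutant pool and 21.2 TPM in the WT pool. The adaptors Fyb and Lcp2, which myeloid cells share, had higher TPM in the mutant pool. Fyb was at 81.5 TPM in the mutant pool and 54.8 TPM in the WT pool, and Lcp2 was at 27.7 TPM in the mutant pool and 16.6 TPM in the WT pool. The co-receptor Cd4, which macrophages can also express, was at 8.76 TPM in the mutant pool and 16.3 TPM in the WT pool.

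Of 15 thymocyte stage genes, 4 were lower in the mutant pool by at least 2-fold and 10 were lower by any amount, with a median difference of -0.48. All 15 had a mean of at least 1 TPM. Among all genes with such a mean, 1.72% were lower by at least 2-fold and 35.1% by any amount. Besides Cd8a and Cd8b1, the 4 genes were Arpp21 and Satb1. Arpp21, an RNA-binding protein gene of immature thymocytes and neurons, was at 7.71 TPM in the mutant pool and 19.4 TPM in the WT pool. Satb1, a chromatin organiser of thymocytes, was at 17.8 TPM in the mutant pool and 38.6 TPM in the WT pool. Tcf12, an E protein gene that many tissues express, was at 327 TPM in the mutant pool and 387 TPM in the WT pool. The 5 thymocyte stage genes with higher TPM in the mutant pool included Rag2, given above, and Tox, at 8.64 TPM in the mutant pool and 5.06 TPM in the WT pool.

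The list of 15 transcription factors and homing receptors was split, with 7 lower and 8 higher in the mutant pool and a median difference of 0.10. Satb1 was its 1 member at least 2-fold lower, and 1 member was at least 2-fold higher. With no filter, 24.4% of all 33640 genes had lower TPM in the mutant pool and 42.8% had higher. By at least 2-fold, 1.25% were lower and 2.98% higher. Klf2 was at 44.1 TPM in the mutant pool and 61.9 TPM in the WT pool, S1pr1 at 47.0 TPM in the mutant pool and 43.7 TPM in the WT pool, and both are also expressed by endothelium. Ikzf3, a lymphocyte transcription factor gene, was at 0.891 TPM in the mutant pool and 2.63 TPM in the WT pool.

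Of 10 genes of gamma delta T cells, 9 had lower TPM in the mutant pool and Tcrg-C3 was listed at 0 in both. Tcrg-C1, a constant region of the gamma chain, was at 4.63 TPM in the mutant pool and 14.8 TPM in the WT pool. Tcrg-C2 was at 0.570 TPM in the mutant pool and 5.23 TPM in the WT pool, and the delta segment Trdv4 was listed at 0 in the mutant pool and was at 5.63 TPM in the WT pool. These were the 3 of the list at least 2-fold lower. Sox13, a factor of this lineage that other tissues express, was at 15.6 TPM in the mutant pool and 17.8 TPM in the WT pool. Of 12 regulatory and effector T cell genes, 3 had lower TPM in the mutant pool and 9 had higher. Over these 5 lists, with each of 67 genes counted once, 38 had lower TPM in the mutant pool and 28 had higher, 8 were at least 2-fold lower and 1 at least 2-fold higher, and the median difference was -0.10. Without the regulatory and effector list the numbers were 35 lower and 19 higher of 55, with a median of -0.32. Beside all these counts, 24.4% of all 33640 genes with no filter had lower TPM in the mutant pool and 42.8% had higher. By at least 2-fold, 1.25% were lower and 2.98% higher, and the median over all of them was 0.

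**Figure D4:**
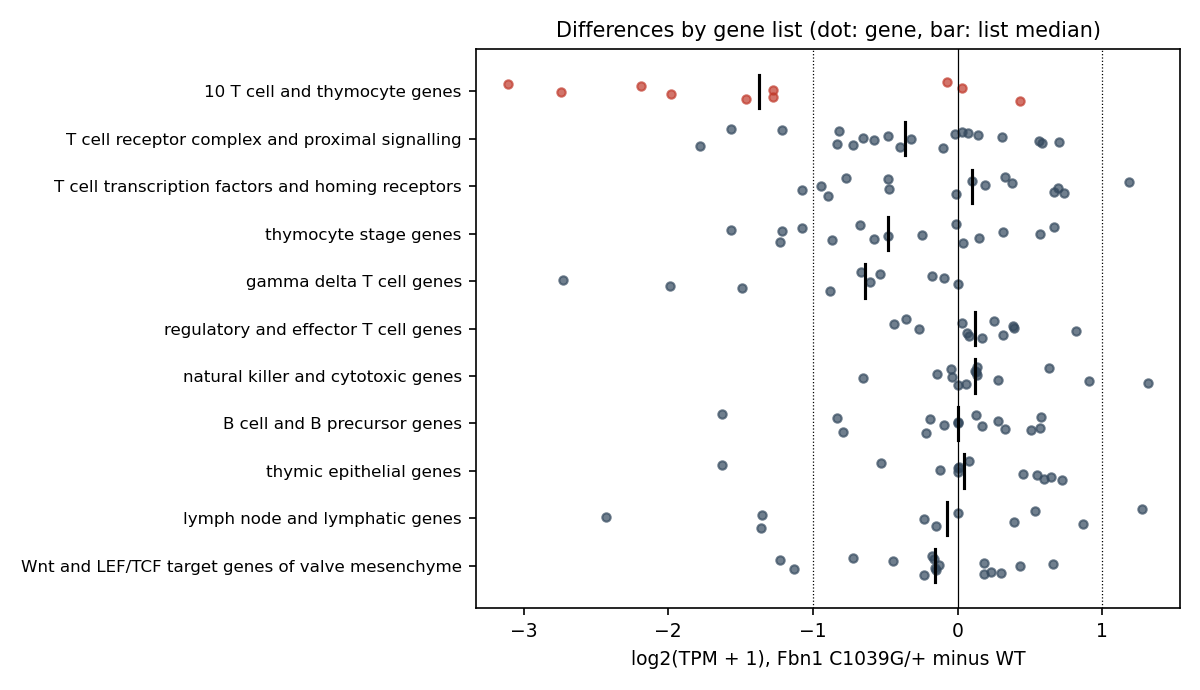
Difference in log2(TPM + 1), Fbn1 C1039G/+ minus WT, for each gene (dot) of the 10 T cell and thymocyte genes (red) and of 10 further lists (dark), with the list median as a black bar and dotted lines at a 2-fold difference on this scale. The median was -1.37 for the 10 genes and -0.36, 0.10, -0.48 and -0.64 for the 4 lists of T lineage genes under them. For the list of regulatory and effector T cell genes, next below, it was 0.12.

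The receptor gene segments were read as a class, since rearranged transcripts carry them next to Trbc1, Trbc2 and the other constant regions. Of 267 segments and constant regions by symbol, 40 were above 0 TPM in the mutant pool and 89 in the WT pool. Of these, 21 were above 0 in both, 19 in the mutant pool alone, 68 in the WT pool alone and 159 in neither. Over all 33640 genes, 59.2% were above 0 in both, 4.48% in the mutant pool alone and 3.53% in the WT pool alone. The 267 segments and constant regions summed to 168 TPM in the mutant pool and 714 TPM in the WT pool, 4.24-fold higher in WT. The 8 constant regions alone summed to 25.9 TPM in the mutant pool and 109.7 TPM in the WT pool, 4.23-fold higher in WT. Both sums, and that of the beta segments below, include Trbc1 and Trbc2, which were chosen by their values in these pools. Trbc1 and Trbc2 made up 11.8 TPM of each sum in the mutant pool and 75.6 TPM in the WT pool.

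By locus, the beta segments were at 17.4 TPM in the mutant pool and 207 TPM in the WT pool, and the alpha segments at 142 TPM in the mutant pool and 468 TPM in the WT pool. Gamma segments summed to 8.37 TPM in the mutant pool and 29.0 TPM in the WT pool, and delta segments to 0.569 TPM in the mutant pool and 10.1 TPM in the WT pool. All 14 joining segments of the beta chain were listed at 0 in the mutant pool, and 8 of them were above 0 in the WT pool, with Trbj1-6 highest at 25.6 TPM. Variable segments of the beta chain summed to 5.60 TPM in the mutant pool, from 4 of 35, and to 26.6 TPM in the WT pool, from 11 of 35. Of the alpha joining segments, 14 of 60 were above 0 in the mutant pool and 24 of 60 in the WT pool, with 6 in both. The most abundant was Traj43, at 13.3 TPM in the mutant pool and 65.2 TPM in the WT pool, followed by Traj14, at 8.14 TPM in the mutant pool and 45.2 TPM in the WT pool. Traj18 was listed at 0 in the mutant pool and was at 35.5 TPM in the WT pool. Joining segments are very short, and TPM divides by length, so a few reads give them high values. Those of the alpha chain made up 118 TPM of the 168 TPM summed over all segments in the mutant pool. In the WT pool they made up 428 TPM of 714 TPM, and the beta joining segments 105 TPM. Trbj1-3 and Trbj1-5 had the same 7.001 TPM in the WT pool, and Trbj2-4 and Trbj2-5 the same 14.5 TPM.

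**Figure D5:**
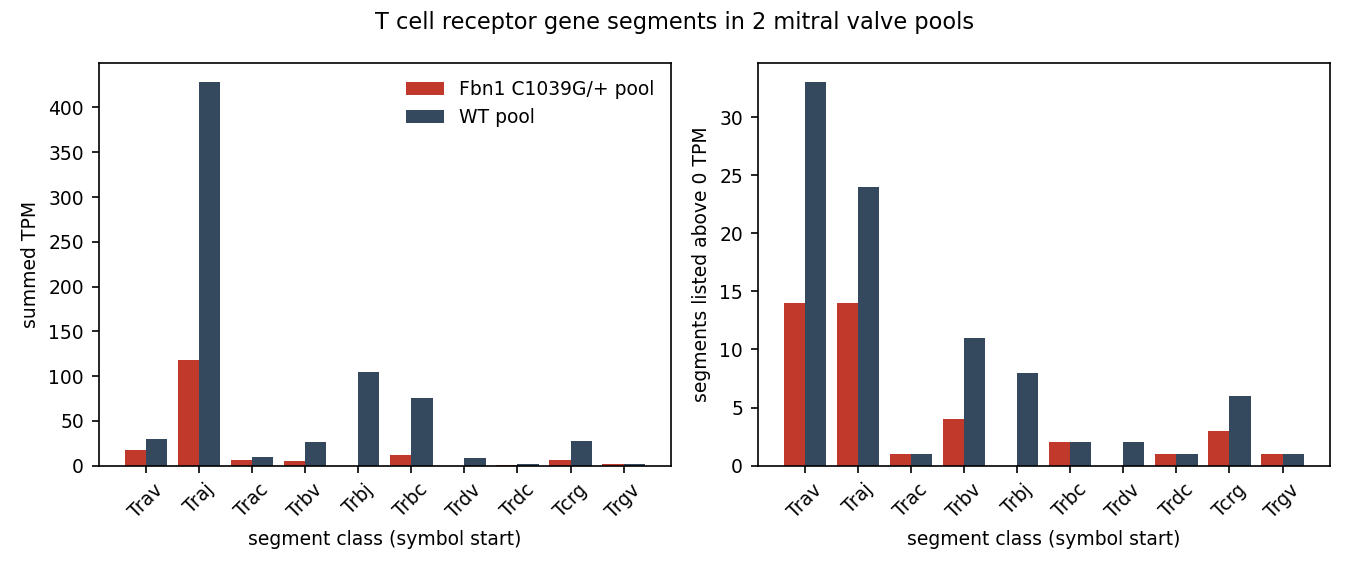
Summed TPM (left) and number of segments listed above 0 TPM (right) by class of T cell receptor gene segment in the Fbn1 C1039G/+ pool (red) and the WT pool (dark), 1 library each. The beta joining segments (Trbj) were at 0 in the mutant pool and summed to 105 TPM in the WT pool, whereas Trac was at 6.77 TPM in the mutant pool and 9.26 TPM in the WT pool.

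Markers of other cells also differed between the same pools. With no filter, 24.4% of all 33640 genes had lower TPM in the mutant pool and 42.8% had higher. By at least 2-fold, 1.25% were lower and 2.98% higher. Among genes with a mean of at least 1 TPM, 35.1% had lower TPM in the mutant pool and 64.9% had higher. Of the labelled tissue's own markers, all 11 valve interstitial and endothelial genes were above 0 in both pools and within 2-fold, with summed levels of 16508 TPM in the mutant pool and 16953 TPM in the WT pool. In the blood and muscle list, 6 of 8 markers had lower TPM in the mutant pool, none was at 0, and the sums were 1534 TPM in the mutant pool and 5585 TPM in the WT pool. The 2 at least 2-fold lower were globin genes of red cells, and 0 were at least 2-fold higher. Hbb-bs, most of the WT sum, was at 388 TPM in the mutant pool and 3769 TPM in the WT pool. Hba-a1 was at 48.4 TPM in the mutant pool and 492 TPM in the WT pool. Of the muscle genes, Tnnt2 was at 506 TPM in the mutant pool and 744 TPM in the WT pool. Nppa was at 179 TPM in the mutant pool and 117 TPM in the WT pool. In the lymph node and lymphatic list, 5 of 10 had lower TPM in the mutant pool and 4 had higher, 3 were at least 2-fold lower and 1 at least 2-fold higher, the sums were 306 TPM in the mutant pool and 457 TPM in the WT pool, and Madcam1 was at 0 in both. Ccl21a, a chemokine of lymphatic vessels and lymph nodes that attracts T cells, was at 94.3 TPM in the mutant pool and 244 TPM in the WT pool, and Cr2, a complement receptor gene of B cells and follicular dendritic cells, was at 17.9 TPM in the mutant pool and 6.79 TPM in the WT pool. All 10 neutrophil and monocyte markers had higher TPM in the mutant pool, 6 of them by at least 2-fold, with a median difference of 1.43. The sums were 1850 TPM in the mutant pool and 1424 TPM in the WT pool. Most of each sum was Lyz2, at 1587 TPM in the mutant pool and 1288 TPM in the WT pool. Plac8 was at 0 in the WT pool alone. Of 15 markers of B cells and their precursors, 6 had lower and 7 had higher TPM in the mutant pool, and the sums were 173 TPM in the mutant pool and 184 TPM in the WT pool. Vpreb2 and Vpreb3 were at 0 in both. Of other genes of B precursors, Vpreb1 was at 0.430 TPM in the mutant pool and 0.528 TPM in the WT pool. Igll1 was at 0.215 TPM in the mutant pool and 0 in the WT pool. Pou2af1, a co-activator gene of B cells, was the 1 marker at least 2-fold lower, at 0.433 TPM in the mutant pool and 3.42 TPM in the WT pool. Of 12 thymic epithelial markers, 3 had lower and 7 had higher TPM in the mutant pool, with sums of 42.7 TPM in the mutant pool and 29.4 TPM in the WT pool, and Krt5 and Krt14 at 0 in both. Tbata was the 1 marker at least 2-fold lower, at 0.162 TPM in the mutant pool and 2.58 TPM in the WT pool, and 0 were at least 2-fold higher. Foxn1, Psmb11, Ccl25 and Aire were above 0 in both pools, with higher TPM in the mutant pool. Ccl25, the most abundant of the list, was at 31.5 TPM in the mutant pool and 19.8 TPM in the WT pool. Foxn1 was at 1.86 TPM in the mutant pool and 0.733 TPM in the WT pool. Aire was at 2.54 TPM in the mutant pool and 1.58 TPM in the WT pool. The part of these cells in the T cell values was not tested.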

How the data were processed

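RNA of 1 mutant and 1 WT pool, each of 8 valves, was amplified (Ovation RNAseq v2) and made into Nextera XT libraries, per the labels' protocols. Trimmomatic, HISAT2, kallisto and mm10 are named, without versions or roles, per the submitters' processing notes. The deposited values are TPM for each gene symbol, per the file headers, and sum to 999945 in the mutant and 999964 in the WT pool. Depth is unknown and TPM does not keep it, so no interval or floor was computed. A value of 0 is only listed as such.

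The difference was log2(TPM + 1), mutant minus WT, with a pseudocount of 1. It understates differences of low genes. Counts over all genes used those with a mean of at least 1 TPM, and counts over lists used all their genes. With 1 library per genotype no test was made. The counting was tested on simulated data with known changes.

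The 10 genes and the 13 other lists were chosen with earlier results of these data known. Named genes were the 10, the genes beside the CD3 cluster, the 3 most abundant segments of each receptor locus, and from each list genes among the 3 most abundant and the 3 with the largest difference at a mean of at least 1 TPM. For lists of other cells not all of these are printed, and some items that the rule takes are not reported here. Atp5l, Mpzl3, Cd4, Trac, Rag2, Tox, Tcf7l1, Tcf7l2, Cr2, Vpreb1, Igll1, B230118H07Rik and the Trbj segments other than Trbj1-6, and genes named for being listed at 0, were named after their values were seen. No gene was named for likeness of pattern, since these pools give 1 difference per gene. Coordinates are from GENCODE M21 (GRCm38), and promoter windows from RefSeq (GRCm38.p6), which held 8 of the 10 genes. Python 3.11.15, numpy 2.4.6 and pandas 2.3.3 were used. Alternatives were other pseudocounts, filters and scalings, the mean in place of the median, and the sum of Trbc1 and Trbc2. Leaving out genes listed at 0 was added after seeing the data.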

Additional observations from a re-analysis of the deposited data

How the results depend on the processing

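The count of 7 of the 10 genes at least 2-fold lower and 0 higher was the same with a pseudocount of 0.1, without a filter, after centring, after quantile normalization and with globin, mitochondrial, Rik, predicted and ribosomal protein genes left out. With a pseudocount of 5 it was 4, the median difference was -0.90, and the list of receptor signalling genes had 0 at least 2-fold lower. Cd3g (-0.69), Rag1 (-0.86) and Tcf7 (-0.94) were then under the 2-fold line, as this pseudocount shrinks low values. With a mean of at least 5 TPM, 6 of the 10 genes were kept and 4 were lower. Lef1 turned to -0.083 after centring on the median of genes with at least 10 TPM, which was 0.11, to -0.11 after quantile normalization and to -0.023 with the abundant classes left out. Cd3d ran from 0.29 to 0.45 over its 7 alternatives. Over all genes, 293 were lower and 818 higher. These counts were 462 and 540 after quantile normalization, 464 and 1264 with a pseudocount of 0.1, 87 and 209 with a pseudocount of 5, and 103 and 360 at a mean of at least 5 TPM. With the abundant classes left out, 277 were lower and 497 higher. No paired analysis was possible because each genotype had 1 library. For the same reason no replicate could be left out. Depth is unknown, so genes under about 5 TPM, which include Cd3g, Rag1, Dntt and Ptcra, may rest on few reads.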

Other observations

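Genes of cytotoxic and natural killer cells share several transcripts with T cells. Of 14 listed, 9 had higher TPM in the mutant pool and 4 had lower, with a median difference of 0.12. Over all 33640 genes with no filter, 42.8% had higher TPM, 24.4% had lower and the median was 0. The 7 listed genes with a mean of at least 1 TPM had a median of 0.28. Among all genes with such a mean the median was 0.14, with 64.9% higher and 35.1% lower. In this list, Ncr1, a defining receptor of natural killer cells, was at 0 in both pools. Klrd1, the CD94 receptor gene, was the 1 gene at least 2-fold higher, at 12.0 TPM in the mutant pool and 4.21 TPM in the WT pool. Klrk1 was at 2.11 TPM in the mutant pool and 0.655 TPM in the WT pool, while Gzma, a granule protease gene, was at 1.21 TPM in the mutant pool and 2.48 TPM in the WT pool. The chemokine gene Ccl5 was at 15.1 TPM in the mutant pool and 15.6 TPM in the WT pool.

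Of 12 regulatory and effector T cell genes, 9 had higher TPM in the mutant pool, 3 had lower and 0 were at least 2-fold different in either direction. The median difference was 0.12. Over all 33640 genes with no filter, 42.8% had higher TPM, 24.4% had lower and the median was 0. The 7 listed genes with a mean of at least 1 TPM had a median of 0.08. Among all genes with such a mean the median was 0.14, with 64.9% higher and 35.1% lower. Foxp3, the factor that defines regulatory T cells, was at 0.585 TPM in the mutant pool and 0.410 TPM in the WT pool. Icos, a co-stimulatory receptor gene, was at 2.05 TPM in the mutant pool and 0.729 TPM in the WT pool. Tnfrsf18, the most abundant of them, was at 38.9 TPM in the mutant pool and 29.7 TPM in the WT pool. Foxp3 was named after its values were seen.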
